A study of Mus musculus with 11 samples.

Results

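The miR-297, miR-466, miR-467 and miR-669 families are groups of mouse microRNAs (miRNAs), most of whose precursor hairpins lie together in 1 intron of the gene Sfmbt2. Their levels were examined in small RNA libraries of CD8+ T cells from the mouse spleen. The families were chosen with earlier results of these data known. By rule, members were every row of the deposited table whose miRNA name begins with one of these 4 family names. That gave 157 of the 2128 deposited rows and 80 of the 1978 miRNA names. Rows with identical counts in all 11 libraries were counted once, which left 72 distinct members of 1011 distinct rows in the whole table. One of the 72 stands for 8 rows of 8 names that had no count in any library, so 71 members were detected.

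Cells came from mice labelled clean or dirty, and each environment gave a pair of sorted subsets. Stamped true naive (TN) cells were CD4- CD8+ CD49dlo GFP+ CD44lo, and stamped virtual memory (VM) cells were the CD44hi cells of the same gate. All groups therefore share the GFP+ and CD49dlo selection, and the labels give no strain, age, sex or promoter of the GFP, and define neither dirty nor stamped. There were 2 libraries of Clean_TN, numbered 2 and 3, and 3 of every other group (Clean_VM, Dirty_TN, Dirty_VM). Nothing says that the libraries came from separate animals, so each p-value measures the spread between these libraries only. Virtual memory cells look like memory CD8+ T cells by their surface markers without prior contact with a foreign antigen, and true naive cells carry no such markers.

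A miRNA is cut from a hairpin precursor, whose 5p and 3p arms can each give a mature strand. The strand loaded into an Argonaute protein pairs with messenger RNAs through its seed, the bases near its 5′ end, and lowers their output. Sfmbt2 encodes a Polycomb group protein, and in rodents its intron carries one of the largest miRNA clusters, which is best known from the placenta and from embryonic stem cells.

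In the GENCODE M21 annotation of mm10, Sfmbt2 lies on the plus strand of chromosome 2 from 10370510 to 10595253. Of the 82 hairpins named on member rows, 70 fell within intron 10 of an Sfmbt2 transcript with 23 exons, an intron that runs from 10461473 to 10523944. These 70 hairpins spanned 51.6 kb, from 10466663 to 10518279. Another 9 lay on other chromosomes, and 3 (mir-297a-1, mir-466a and mir-466c-3) had no match by name. No deposited row outside the 4 families had its hairpin within this span.

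The mature sequence table from RefSeq (GRCm38.p6) matched 8 of the 80 member names. Of these, 4 are shown, the pair that was abundant enough to test (miR-466i-3p and miR-467h) and a pair of others that show the same repeats. Capitals mark the seed, bases 2 to 8 from the 5′ end.
miR-466i-3p: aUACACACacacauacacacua
miR-467f: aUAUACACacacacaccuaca
miR-466j: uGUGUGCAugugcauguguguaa
miR-467h: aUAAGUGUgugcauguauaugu
Each carries repeats of CA or of UG. All 8 matched members held ACACAC or UGUGUG, searched on the mature strand as written, against 39 of 1679 mature mouse miRNAs in the table (2.32%, the 8 members included). The 8 had 8 different seeds. All 8 are encoded outside the Sfmbt2 intron, so the repeats and seeds of members within it were not examined. Only the seed of miR-467h was shared with a miRNA outside the families, miR-668-5p, which had no count in any library. miR-466i-3p is encoded on the plus strand of chromosome 13 from 17747552 to 17747573, within the bounds of Cdk13, which runs on the other strand.

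Reads from members that resemble one another are hard to assign. Of the 149 member rows with a count, 143 (96.0%) held at least 1 fractional count, against 243 of 1119 other rows (21.7%). Of the tested members, 4 stood for rows of several names with identical counts, such as miR-669a-3p with miR-669o-3p, and are called here by the first name. miR-467a-3p and miR-467d-3p differed by at most 2.29% in any library, and the 2 rows of miR-669d-5p by at most 2.04%. Values of single members below are those of the deposited rows, and members of one family are not independent measurements.

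Library totals ran from 2614396 to 16312004 estimated counts. Of the 11 libraries, 5 were shallow, with at most 4116012 counts (Clean_TN 3, Clean_VM 1, Dirty_TN 2, Dirty_VM 1 and Dirty_VM 2), and the other 6 had at least 9399645. Every group held libraries of both kinds. Levels are given as CPM, counts relative to the scaled library total and not divided by length, and a count of 0 allows a level of up to 0.18 CPM in the deepest and 1.23 CPM in the shallowest library (3 counts, counting error only). The 5 T cell miRNAs listed as markers summed to 76140 to 147100 CPM in every library, while miR-223-3p, a myeloid marker, stood at 0.257 to 3.12 CPM. Of 10 stem cell and trophoblast miRNAs, 9 had no count at all, and the remaining one reached 0.0911 CPM. In these bulk libraries, fewer cells of a type and less RNA per cell cannot be told apart.

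Together the members held 0.112% to 0.195% of each library's counts with identical rows counted once, and 0.168% to 0.2998% with all deposited rows counted. Of the 71 detected members, 3 had a mean of 100 CPM or more, 18 lay between 10 and 100, 18 between 1 and 10, and 32 below 1. A filter on low counts kept 44 members (22 on the 3p arm, 20 on the 5p arm and 2 with no arm named), 43 of them with a count in every library. The other 27 detected members had means of at most 0.541 CPM and were not tested.

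The most abundant member was miR-669c-5p, cut from a hairpin at 10509296 to 10509404. It stood at 284 and 375 CPM in Clean_TN, 429, 761 and 603 in Clean_VM, 505, 886 and 287 in Dirty_TN, and 308, 560.5 and 623 in Dirty_VM. Its Clean_VM libraries all lay above the Clean_TN libraries, while the Dirty groups overlapped across most of their range. The log2 difference of VM from TN was 0.86 ± 0.43 (SE) in clean mice and -0.17 ± 0.37 in dirty mice, and neither passed the test (edgeR adjusted p = 0.188 and 0.822).

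Next came miR-467e-5p, from a hairpin at 10505721 to 10505807. Its levels were 229 and 233 CPM in Clean_TN, 160.2, 119.8 and 107 in Clean_VM, 197, 208 and 238 in Dirty_TN, and 158, 147 and 142 in Dirty_VM. Every VM library lay below every TN library. The other members among the 6 most abundant were miR-466f-3p of hairpin mir-466f-2, miR-467c-5p, miR-466d-3p and miR-466g. miR-466f-3p of that hairpin stood at 138 and 149 CPM in Clean_TN, 102, 122 and 109 in Clean_VM, 143, 110.5 and 148 in Dirty_TN, and 109, 83.1 and 115 in Dirty_VM. Its Clean groups did not overlap, and its Dirty groups did. miR-467c-5p stood at 98.3 and 87.3 CPM in Clean_TN, 70.6, 87.2 and 81.3 in Clean_VM, 100.3, 97.5 and 110.2 in Dirty_TN, and 79.4, 86.7 and 90.4 in Dirty_VM, with VM below TN in both environments by a narrow gap. miR-466g stood at 51.3 and 64.2 CPM in Clean_TN, 48.3, 50.4 and 37.8 in Clean_VM, 57.4, 69.2 and 61.2 in Dirty_TN, and 47.9, 47.7 and 32.0 in Dirty_VM, again without overlap. With both environments averaged, none of these 3 passed the test. Their log2 differences of VM from TN were -0.38 ± 0.15, -0.24 ± 0.13 and -0.45 ± 0.16 (edgeR adjusted p = 0.0821, 0.206 and 0.0622).

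**Figure D1:**
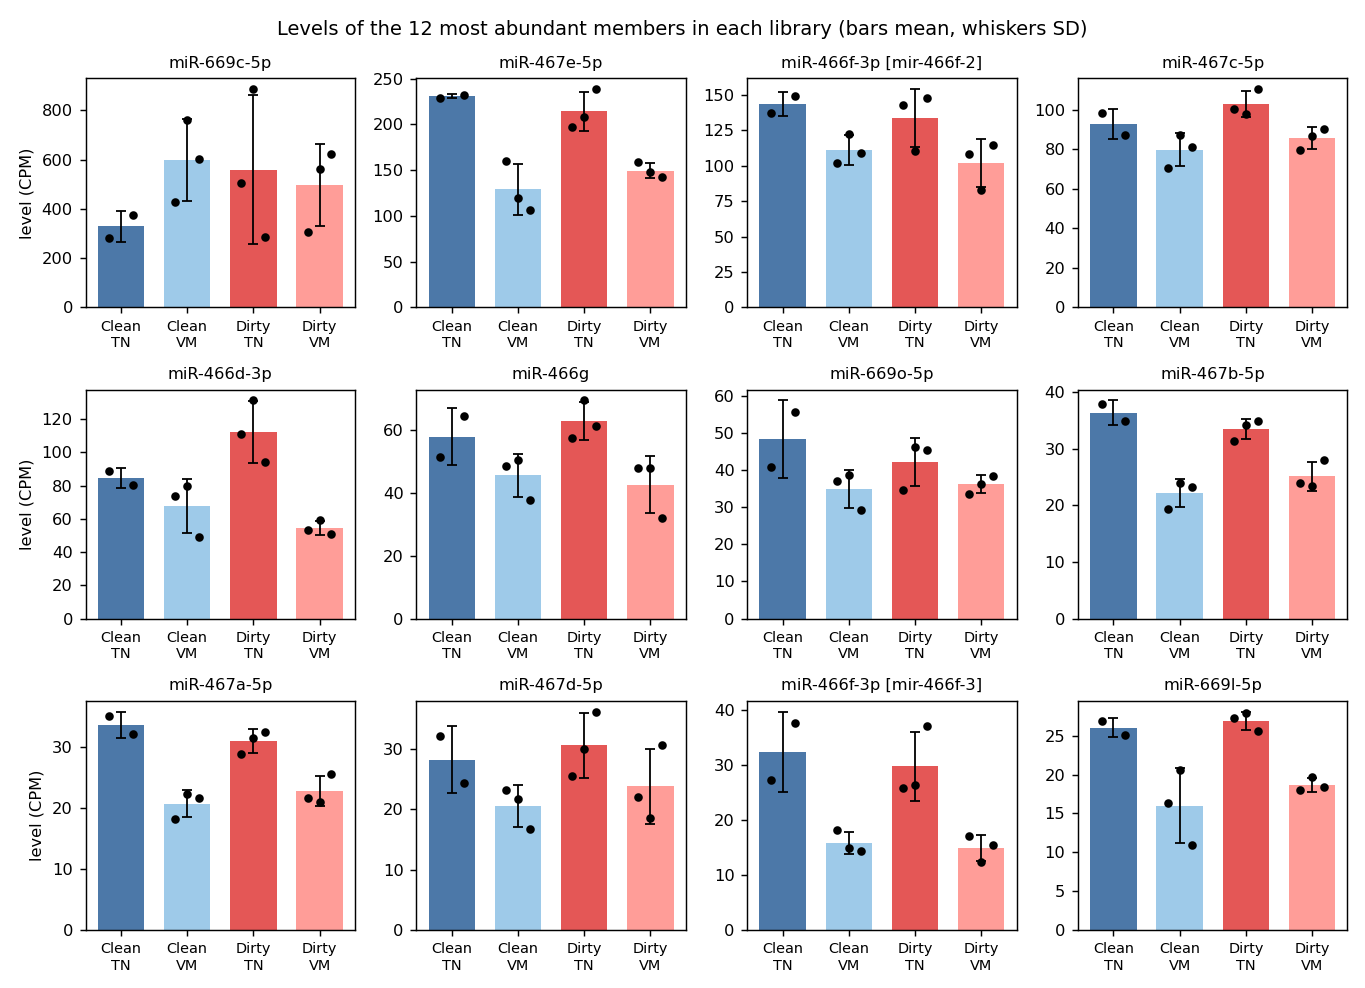
Level of the 12 most abundant members in each library, in CPM from 0 on a separate axis for each member, with 1 point per library, bars at the group mean and whiskers of 1 SD (Clean_TN n = 2, other groups n = 3). miR-467e-5p lies lower in every VM library than in every TN library, whereas the points of miR-669c-5p overlap between the dirty groups.

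The first comparison asks how the miRNAs of VM cells differ from those of TN cells. In clean mice 6 of the 44 tested members were lower in VM cells and none was higher. They were miR-467e-5p, miR-467b-5p, miR-467a-5p, both miR-466f-3p rows of hairpins mir-466f-1 and mir-466f-3, and miR-297a-3p, the last joined with miR-297b-3p and miR-297c-3p. Among all 545 rows tested, 7.71% were lower and 9.72% higher at the same threshold (edgeR quasi-likelihood test, Benjamini-Hochberg adjusted p under 0.05). Here and below, shares of all rows include the member rows themselves, with joined members entering once per name. The median log2 difference was -0.58 over the members and 0.08 over all rows, and 39 of 44 members lay below 0, where 47.0% of all rows did. The libraries of the groups did not overlap for 27 members with VM lower (23.7% of all rows) and for 4 with VM higher (28.4%). The count of 6 depends on the settings and on single libraries. It was 3 with the replicate number as a block, where miR-297a-3p, miR-467b-5p and miR-467a-5p were lost. With a filter of 10 CPM in at least 2 libraries the count was 10, of 24 members then tested. The count was 2 without Clean_TN replicate 2, 0 without Clean_TN replicate 3, and 3 without Clean_VM replicate 1 or without Dirty_VM replicate 2, and it was 10 without Dirty_TN replicate 1 or 3.

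In dirty mice 13 of the 44 members were lower in VM cells and none was higher, where 5.87% of all rows were lower and 6.24% higher. All 13 were 3p strands. The median log2 difference was -0.59 over the members and 0.02 over all rows, with 40 of 44 members below 0 (49.2% of all rows). Groups did not overlap for 24 members with VM lower (13.6% of all rows) and for none with VM higher (17.1%). Without Dirty_VM replicate 3 the count was 4, and the members still called were miR-466a-3p, miR-466d-3p, miR-466e-3p and miR-466f-3p of mir-466f-1. The calls of miR-467a-3p and its near-identical row miR-467d-3p were lost in 13 and 14 of 23 alternatives. Those of miR-466b-3p and of miR-466f-3p of mir-466f-3 were each lost in 7 of 22. The remaining calls were lost in 1 (miR-466d-3p) to 5 (miR-466n-3p) alternatives. Across both environments, 36 members lay below 0 in clean and in dirty mice, and only miR-669h-5p lay above 0 in both, at 0.43 ± 0.34 and 0.13 ± 0.29 (edgeR adjusted p = 0.403 and 0.823).

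With the VM minus TN difference averaged over both environments, 21 of the 44 members were lower in VM cells and none was higher, where 12.3% of all rows were lower and 11.4% higher. Their log2 differences ran from -1.49 to -0.56. For 16 of the 21, VM and TN libraries did not overlap in either environment. Over all tested members 18 were so separated with VM lower and none with VM higher, against 8.81% and 7.71% of all rows. The median log2 difference was -0.65 over the members, 0.09 over all rows and 0.15 over the 495 rows outside the families, and 38 members lay below 0 (45.5% of all rows). Of the 21 members with a mean of at least 10 CPM, 15 were lower, but the share among all rows at that level was not counted. The count was 13 without Clean_TN replicate 2, where miR-467a-5p, miR-467b-5p, miR-466b-3p, miR-466h-3p, miR-669f-3p, miR-669l-5p and both miR-669d-5p rows were lost. Fitted within depth classes, the member median was -0.80 over the 5 shallow libraries and -0.81 over the 6 deeper ones, with 1 and 0 members called. Called members with near-identical counts are not separate measurements.

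**Figure D2:**
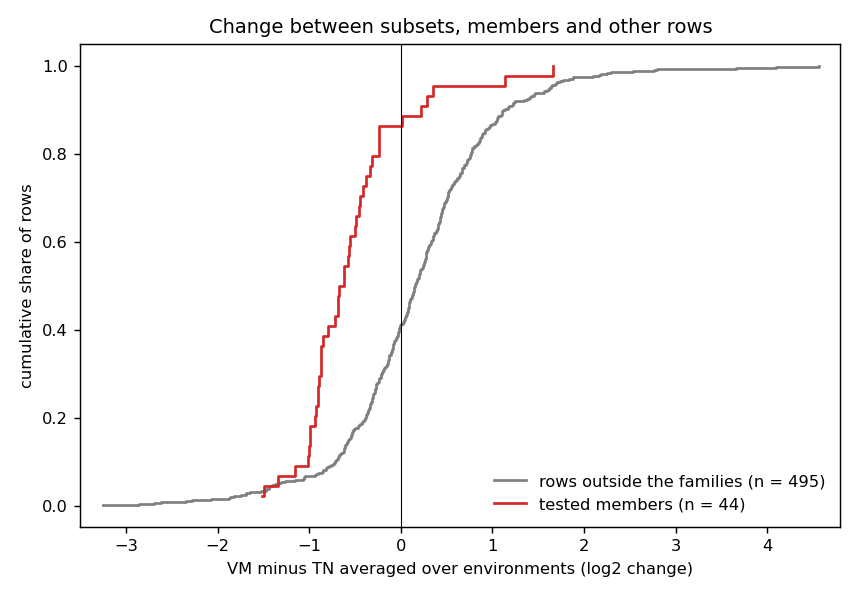
Cumulative share of rows against the log2 difference of VM from TN cells, averaged over environments, for the 44 tested members and the 495 tested rows outside the families. The curve of the members lies to the left of the other over most of its length, with medians of -0.65 and 0.15.

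In the averaged comparison the smallest adjusted p values came from miR-466f-3p, whose rows belong to hairpins at 10466944 to 10467037 (mir-466f-1) and 10471953 to 10472046 (mir-466f-3). These 2 rows were the only members called in both environments. The mir-466f-1 row ranged from 8.73 to 13.3 CPM in the TN libraries and from 3.61 to 4.91 CPM in the VM libraries. Its log2 difference was -1.40 ± 0.31 in clean, -1.30 ± 0.29 in dirty and -1.35 ± 0.21 averaged (edgeR adjusted p = 0.00879, 0.00911 and 0.000576). The mir-466f-3 row stood at 27.3 and 37.7 CPM in Clean_TN, 18.1, 14.9 and 14.3 in Clean_VM, 25.9, 26.3 and 37.1 in Dirty_TN, and 17.04, 12.4 and 15.5 in Dirty_VM. All TN libraries were above all VM libraries, and the averaged difference was -1.02 ± 0.18 (edgeR adjusted p = 0.00132). The mir-466f-2 row of the same mature name, described above, was several times more abundant and did not pass.

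Within the miR-466 family, 8 of 16 tested members were lower in VM cells over both environments (12.3% of all rows), with a median log2 difference of -0.68. miR-466d-3p, from 10511967 to 10512062, stood at 88.8 and 80.3 CPM in Clean_TN, 74.0, 79.6 and 49.3 in Clean_VM, 110.9, 131 and 94.3 in Dirty_TN, and 53.3, 59.3 and 51.2 in Dirty_VM. The gap was wide in dirty mice and narrow in clean mice, at -1.04 ± 0.22 and -0.32 ± 0.24 (edgeR adjusted p = 0.0072 and 0.365). The difference between those values, the interaction, was not called (-0.72 ± 0.33, edgeR adjusted p = 0.28). miR-466a-3p stood at 12.5 and 10.7 CPM in Clean_TN, 8.88, 7.79 and 6.40 in Clean_VM, 15.5, 18.1 and 15.6 in Dirty_TN, and 4.58, 8.67 and 5.74 in Dirty_VM, without overlap in either environment. It fell by 1.40 ± 0.29 on the log2 scale in dirty mice (edgeR adjusted p = 0.00609). miR-466e-3p stood at 12.8 and 11.2 CPM in Clean_TN, 9.27, 8.34 and 7.02 in Clean_VM, 16.0, 18.4 and 16.0 in Dirty_TN, and 4.998, 8.90 and 6.39 in Dirty_VM, which is close to miR-466a-3p in each library. Its averaged difference was -0.93 ± 0.20 (edgeR adjusted p = 0.00444).

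miR-466i-3p, whose sequence is shown above and whose hairpin lies outside the intron, stood at 18.3 and 24.7 CPM in Clean_TN, 15.4, 15.2 and 11.1 in Clean_VM, 18.7, 22.1 and 22.3 in Dirty_TN, and 14.2, 11.9 and 11.8 in Dirty_VM. All VM libraries were below all TN libraries, with an averaged log2 difference of -0.67 ± 0.18 (edgeR adjusted p = 0.0138), a call lost without Clean_TN replicate 3. It was the only one of 4 tested members encoded outside the intron to be called, against 19 of 39 encoded within it. This difference was not tested, and 12.3% of all rows were lower. The others outside were miR-467h and both rows of miR-466i-5p, with low means of 0.993, 0.822 and 0.666 CPM. Within the intron, miR-669p-3p and miR-467b-3p had means of 0.776 and 0.757 CPM and were not called either. miR-466h-3p stood at 22.4 and 21.5 CPM in Clean_TN, 13.6, 15.9 and 16.6 in Clean_VM, 18.9, 17.4 and 32.5 in Dirty_TN, and 12.3, 14.2 and 15.2 in Dirty_VM. It did not overlap between subsets either, and its averaged difference was -0.62 ± 0.20 (edgeR adjusted p = 0.0374). This call was lost in 10 of 22 alternatives, with the replicate number as a block, within either depth class and without any one of 7 libraries (both of Clean_TN, Clean_VM 1, Dirty_TN 3 and all of Dirty_VM). miR-466b-3p, joined with miR-466c-3p and miR-466p-3p, stood between 2.34 and 7.51 CPM and was lower by -0.80 ± 0.23 (edgeR adjusted p = 0.0222). miR-466n-3p was called in dirty mice alone (-2.15 ± 0.58, edgeR adjusted p = 0.0257), where it ranged from 4.06 to 6.55 CPM in TN and from 0.411 to 1.49 CPM in VM libraries. In Dirty_VM replicate 2 its 0.411 CPM is below the 1.23 CPM that 3 counts are worth in that library, so its fitted differences here and below are imprecise. The call was lost without Dirty_TN replicate 1, Dirty_VM replicate 2 or Dirty_VM replicate 3.

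Of 11 tested miR-467 members, 7 were lower in VM cells over both environments (12.3% of all rows). All 11 lay below 0 (45.5% of all rows), with a median of -0.68. miR-467e-5p, whose levels are given above, was lower by -0.84 ± 0.21 in clean mice and by -0.68 ± 0.14 averaged (edgeR adjusted p = 0.0163 and 0.00375). miR-467b-5p stood at 37.9 and 34.8 CPM in Clean_TN, 19.3, 23.9 and 23.3 in Clean_VM, 31.4, 34.1 and 34.8 in Dirty_TN, and 24.0, 23.4 and 28.1 in Dirty_VM. Its subsets did not overlap, and its averaged difference was -0.56 ± 0.15 (edgeR adjusted p = 0.0134). miR-467a-5p stood at 35.2 and 32.1 CPM in Clean_TN, 18.2, 22.3 and 21.6 in Clean_VM, 28.8, 31.6 and 32.6 in Dirty_TN, and 21.6, 21.1 and 25.6 in Dirty_VM. That is close to miR-467b-5p in every library, and the averaged difference was -0.57 ± 0.15 (edgeR adjusted p = 0.013).

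miR-467a-3p stood at 25.5 and 29.0 CPM in Clean_TN, 17.6, 16.0 and 11.6 in Clean_VM, 21.3, 25.3 and 36.8 in Dirty_TN, and 13.7, 16.5 and 15.1 in Dirty_VM. It and its near-identical row miR-467d-3p did not overlap between subsets, and both were lower by -0.87 ± 0.19 averaged (edgeR adjusted p = 0.00576). miR-467e-3p stood at 14.5 and 14.9 CPM in Clean_TN, 15.4, 11.2 and 5.01 in Clean_VM, 15.7, 22.0 and 22.4 in Dirty_TN, and 6.599, 8.88 and 6.27 in Dirty_VM. Here the clean groups overlapped and the dirty groups were far apart, with a dirty difference of -1.48 ± 0.36 (edgeR adjusted p = 0.0179). miR-467c-3p behaved alike, at 8.24 to 13.0 CPM in all clean libraries but Clean_VM replicate 3 (4.24 CPM), 10.7 to 17.1 CPM in Dirty_TN and 3.84 to 5.83 CPM in Dirty_VM. Its dirty difference was -1.70 ± 0.37 (edgeR adjusted p = 0.00832).

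Of 15 tested miR-669 members, 5 were lower in VM cells over both environments (12.3% of all rows), with a median of -0.50. miR-669a-3p, joined with miR-669o-3p, stood at 21.8 and 22.3 CPM in Clean_TN, 17.6, 14.9 and 8.25 in Clean_VM, 27.0, 33.1 and 26.6 in Dirty_TN, and 12.4, 16.4 and 10.8 in Dirty_VM. Neither environment showed an overlap, and the averaged difference was -0.93 ± 0.21 (edgeR adjusted p = 0.00699). miR-669f-3p stood at 22.0 and 19.7 CPM in Clean_TN, 21.5, 18.1 and 10.45 in Clean_VM, 26.8, 31.8 and 27.5 in Dirty_TN, and 11.5, 16.9 and 11.6 in Dirty_VM. It overlapped in clean mice and was apart in dirty mice (-1.12 ± 0.28, edgeR adjusted p = 0.0188). miR-669l-5p stood at 26.9 and 25.2 CPM in Clean_TN, 16.4, 20.6 and 10.9 in Clean_VM, 27.2, 27.9 and 25.7 in Dirty_TN, and 18.0, 19.7 and 18.3 in Dirty_VM, with an averaged difference of -0.62 ± 0.18 (edgeR adjusted p = 0.0242). The 2 near-identical rows of miR-669d-5p were called only in the averaged comparison (-0.90 ± 0.29 and -0.91 ± 0.30, edgeR adjusted p = 0.0403 for both), and that call was lost in 9 of 20 alternatives, among them the replicate number as a block, no filter on low counts and the removal of any one of 5 libraries (both of Clean_TN, Dirty_TN 3, Dirty_VM 1 and Dirty_VM 3). In the small miR-297 family, miR-297a-3p was the called one of 2 tested members. It stood at 5.03 and 6.17 CPM in Clean_TN, 0.899, 1.97 and 1.52 in Clean_VM, 2.02, 3.85 and 8.15 in Dirty_TN, and 2.78, 2.12 and 1.93 in Dirty_VM. Clean groups were apart and dirty groups overlapped, with an averaged difference of -1.49 ± 0.38 (edgeR adjusted p = 0.0122).

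Members of both arms were among those called. In clean mice 3 of 22 tested 3p members and 3 of 20 tested 5p members were lower in VM cells, with medians of -0.61 and -0.59. In dirty mice 13 of 22 on the 3p arm and 0 of 20 on the 5p arm were lower, with medians of -1.07 and -0.26. All 22 members on the 3p arm lay below 0 in dirty mice, and 16 of 20 on the 5p arm did. Over all rows 7.71% were lower in clean and 5.87% in dirty mice, and the arms were not tested against each other. For hairpin mir-467c, at 10473931 to 10474027, the ratio of 5p to 3p levels was 6.16 to 9.34 in Dirty_TN and 14.9 to 23.5 in Dirty_VM libraries. For mir-467e it was 9.47 to 12.5 in Dirty_TN and 16.6 to 24.0 in Dirty_VM. In clean mice the mir-467c ratio was 7.99 ± 1.82 (SD, n = 2) in TN and 12.04 ± 6.52 (SD, n = 3) in VM cells, and the mir-467e ratio was 15.7 ± 0.198 and 14.2 ± 6.22, with overlapping libraries in both cases. For mir-467d, the third hairpin whose arms were compared, the clean groups were apart and the dirty groups were not. Its ratio was 0.849 to 1.27 in Clean_TN and 1.33 to 1.47 in Clean_VM, without overlap, and it was 0.9998 to 1.21 in Dirty_TN and 1.14 to 2.06 in Dirty_VM, with overlap. The 3p row used here is nearly identical to miR-467a-3p, a row of 10 hairpins, so this ratio may not be that of mir-467d alone. These ratios were not tested. Other hairpins with both arms tested, such as mir-466h and mir-669f, were not compared, so these ratios do not describe the cluster as a whole.

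**Figure D3:**
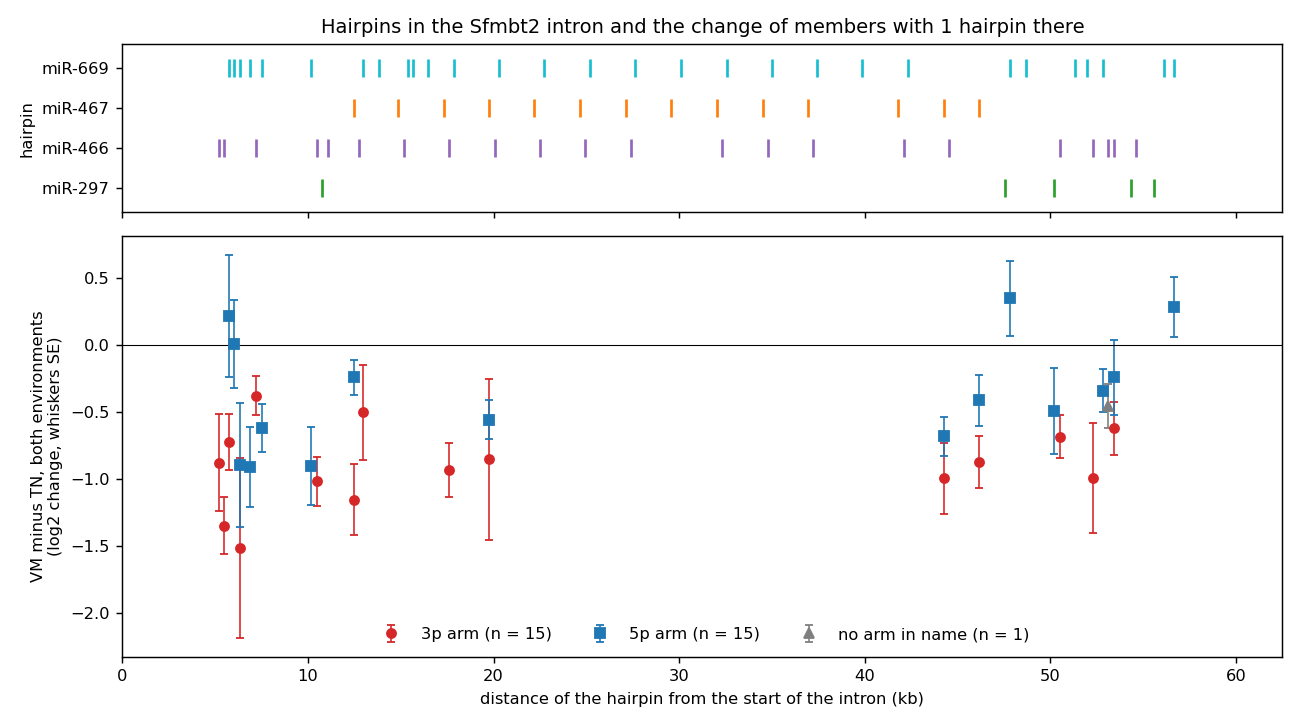
Top, distance of each member hairpin from the start of the Sfmbt2 intron in kb, by family. Bottom, averaged log2 difference of VM from TN cells with whiskers of 1 SE for the 31 tested members that have a single hairpin in the intron, by arm; 27 of the 31 points lie below 0, near both ends of the cluster, while the middle of the cluster holds repeated hairpins and no such member.

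Summed over members, the families differed in size. In clean mice the miR-466 sum was 428 ± 21.3 CPM (SD, n = 2) in TN and 314 ± 35.2 CPM (SD, n = 3) in VM cells. In dirty mice it was 459 ± 14.6 CPM in TN and 279 ± 9.02 CPM in VM cells (SD, n = 3 each). The miR-467 sum was 504 ± 9.05 and 321.5 ± 36.0 CPM in clean TN and VM cells, and 505 ± 57.8 and 351 ± 6.74 CPM in dirty TN and VM cells. Both sums were lower in each VM library than in each TN library. The miR-297 sum was 11.3 ± 1.68 CPM in Clean_TN and 4.798 ± 0.902 CPM in Clean_VM, and its dirty groups overlapped, from 6.95 to 14.2 CPM in TN and from 5.80 to 9.48 CPM in VM cells. The miR-669 sum was 491 ± 78.1 and 709 ± 162 CPM in clean TN and VM cells. Its Clean_VM libraries (558.6 to 880.9 CPM) all lay above its Clean_TN libraries (436.1 to 546.5 CPM). In dirty TN and VM cells it was 729 ± 314 and 614 ± 171 CPM, and the groups overlapped. Most of the miR-669 sum is miR-669c-5p. The log2 difference of the miR-669 sum, VM from TN, was 0.16, and it turned to -0.14 when identical rows were all counted. Without miR-669c-5p, all other members summed to 1106 ± 27.6 CPM in Clean_TN, 752 ± 87.7 in Clean_VM, 1145 ± 84.6 in Dirty_TN and 755 ± 3.99 in Dirty_VM.

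**Figure D4:**
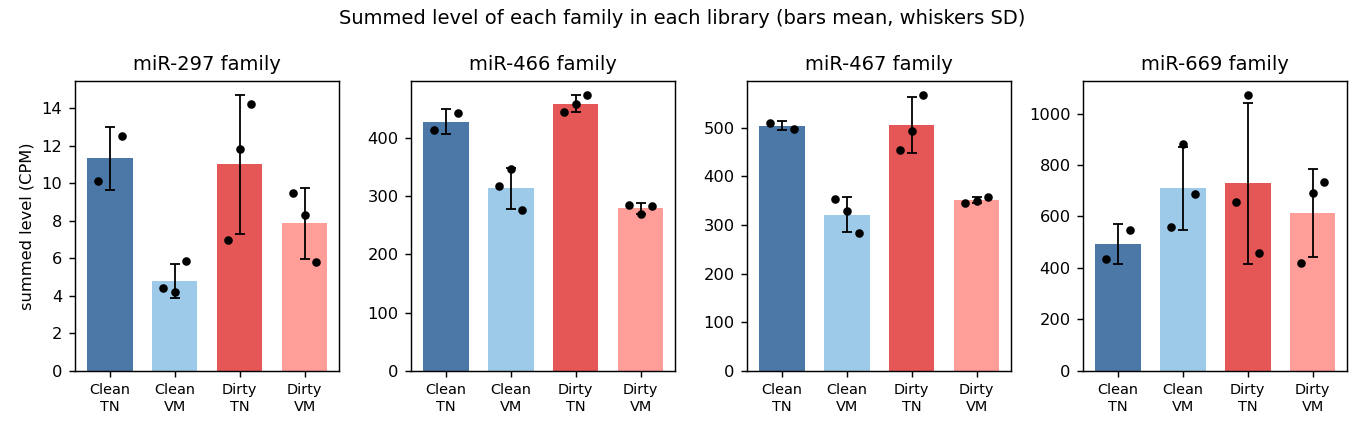
Summed level of each family in each library, in CPM from 0, with bars at the group mean and whiskers of 1 SD (Clean_TN n = 2, other groups n = 3). The miR-466 and miR-467 sums are lower in all VM libraries, and the miR-669 sum varies most within groups.

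The second comparison asks whether the environment of the mice goes with a difference in these miRNAs. No member was called between the environments, whether among TN cells, among VM cells or over both, and none of the 545 rows was (0.0% in either direction). DESeq2 also called none of the members. At an unadjusted edgeR p under 0.05, 1 of 44 members was higher in TN cells, 1 was lower in VM cells and 1 was higher in the average, where 31, 30 and 23 of all 545 rows were. Member medians were 0.08 in TN and -0.02 in VM cells, beside 0.16 and 0.08 over all rows. Groups did not overlap in TN cells for 13 members with dirty higher and 3 with dirty lower (14.3% and 8.99% of all rows), and in VM cells for 2 and 1 (12.5% and 8.44%).

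The members with the smallest p in TN cells were miR-669h-5p and miR-466i-5p. miR-669h-5p, from a hairpin at 10518155 to 10518279, stood at 4.64 and 4.22 CPM in Clean_TN and at 7.84, 8.65 and 6.04 in Dirty_TN. These groups did not overlap, and the log2 difference was 0.74 ± 0.34 (edgeR adjusted p = 0.559). It was also the smallest p in the average over subsets (0.59 ± 0.23, edgeR adjusted p = 0.837), followed by miR-467b-3p, which stood at 0.309 to 1.65 CPM, below the level of 3 counts in 3 libraries, so that no fold is given (edgeR adjusted p = 0.93). miR-466i-5p stood on 2 rows for one hairpin with different values. Its row with the small p was at 0.0319 and 0.367 CPM in Clean_TN, below the level of 3 counts, and at 0.771, 1.27 and 0.373 in Dirty_TN, so no fold is given (edgeR adjusted p = 0.612). In VM cells the smallest p belonged to miR-466n-3p (-1.50 ± 0.58, edgeR adjusted p = 0.227) and miR-467c-3p (-0.78 ± 0.37, edgeR adjusted p = 0.353).

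**Figure D5:**
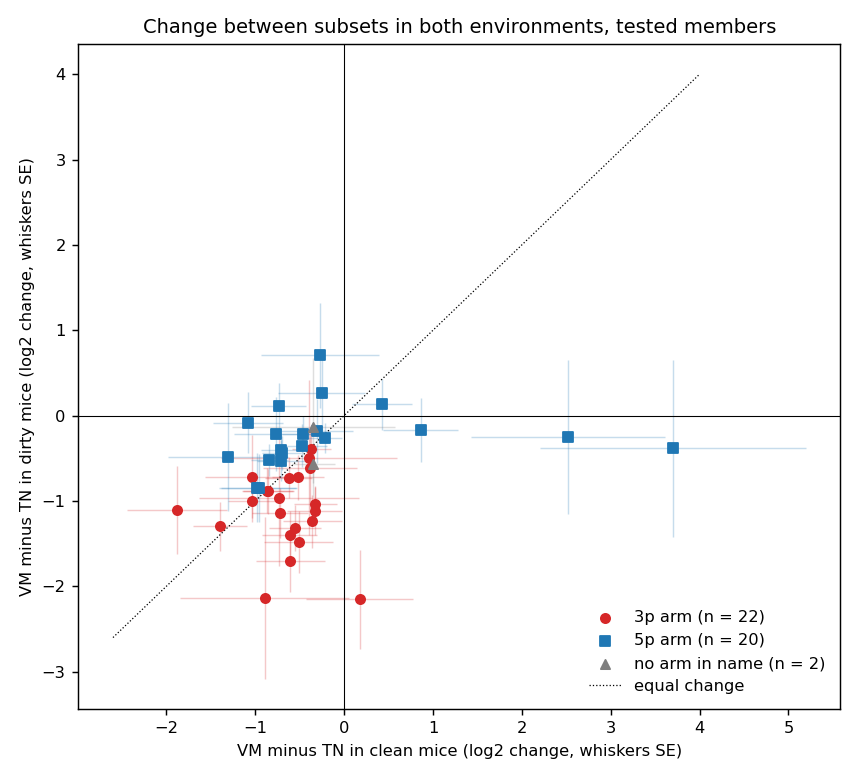
Log2 difference of VM from TN cells in dirty mice against that in clean mice, 1 point per tested member by arm, with whiskers of 1 SE and a dotted line of equal difference. Of the 44 points, 36 lie below 0 on both axes and 1 lies above 0 on both, and the 2 points farthest to the right are the rows of miR-466i-5p, whose Clean_TN levels are below the level of 3 counts.

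The interaction tests whether the gap between VM and TN cells is wider in one environment than in the other. No member was called by edgeR or by DESeq2, as was the case for all 545 rows in edgeR (0.0%). At an unadjusted edgeR p under 0.05, 3 of 44 members had a more negative difference in dirty mice, beside 55 of all 545 rows. They were miR-466n-3p (-2.33 ± 0.84, edgeR adjusted p = 0.203), miR-466i-5p (edgeR adjusted p = 0.271, at the low levels given above) and miR-466d-3p. Strands called in one environment and not in the other are therefore not shown to differ between them.

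Markers of other cell types were read in the same libraries. Calls of marker miRNAs here are those of the averaged comparison, where 11.4% of all rows were higher in VM cells and 12.3% lower. The lists are short, and their counts were not tested. The erythroid list summed to 59.6 to 147 CPM in TN and 120 to 260.2 CPM in VM libraries, and 2 of its 3 tested miRNAs were higher in VM cells. The epithelial list (2 of 5 higher) summed to 1232 to 1780 CPM in TN and 1495 to 2199 CPM in VM libraries. The hepatocyte and muscle list (1 of 4 higher) summed to 860.1 to 1835 CPM and 1224 to 2755 CPM, and the endothelial and platelet list (1 of 2 higher) to 15.3 to 29.7 CPM and 21.7 to 53.0 CPM. Their part in the lower levels of the 4 families was not tested. As another large imprinted miRNA cluster, the Dlk1-Dio3 list had 98 names in the table and 18 tested rows. None was called in any contrast, and its median log2 difference of VM from TN was 0.59 with 1 of 18 rows below 0. Of the 5 T cell marker miRNAs, 2 were lower in VM cells and none was higher. Their sum was 138900 to 147100 CPM in Clean_TN and 84200 to 110700 CPM in Clean_VM, without overlap. In dirty mice it was 76140 to 142000 CPM in TN and 86900 to 101900 CPM in VM libraries, with overlap.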

How the data were processed

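Small RNA of sorted CD8+ T cells was sequenced, and the authors deposited a table of estimated counts per mature miRNA and hairpin, with no scaling between libraries seen in the values. The genome build is mm10 per the submitters' processing notes. The aligner, counter, annotation release and the division of reads among matching hairpins are not given in the sources used here. Rows with the same name and identical counts in all libraries were kept once, and counts were rounded. Rows were filtered with filterByExpr, scaled by TMM and fitted in edgeR 4.0.16 (quasi-likelihood, robust) in R 4.3.3 with 1 mean per group over 11 libraries (7 residual degrees of freedom). The 7 contrasts used two-sided tests with Benjamini-Hochberg adjustment over 545 rows and a threshold of 0.05. The SE was worked back from the F statistic and the log2 change. CPM use TMM-scaled totals, and rows with identical counts under different names enter sums once.

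Named members were all with an adjusted p under 0.05 in any contrast, the 6 most abundant, and the 2 with the smallest p where none passed. Values are given in every library for named members of at least 10 CPM, with some lower ones added after their values were seen. miR-467d-3p is given through its near-identical row. Members and lists were chosen with earlier results of these data known, and the removal of single libraries from family sums was added after the values were seen. Alternatives were DESeq2 1.42.0, other scalings, filters and row handling, a replicate block, a depth term, subsets of libraries and leaving out each library. The fit was also run on simulated data, whose outcome is not given here. Its rows were drawn independently and with a common spread, unlike rows that share reads, and no result above rests on it. Hairpin positions and introns came from GENCODE M21, and mature sequences from RefSeq.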

Additional observations from a re-analysis of the deposited data

Results flagged for a closer look

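For miR-466c-5p the dirty and clean libraries were separated in both subsets, in opposite directions. It stood at 6.26 and 6.73 CPM in Clean_TN and at 2.74, 5.96 and 5.36 CPM in Dirty_TN, so dirty was lower without overlap. In VM cells it stood at 3.04, 3.09 and 3.01 CPM in clean and at 5.06, 4.38 and 3.78 CPM in dirty mice, so dirty was higher without overlap. The test of this difference, the interaction, gave a log2 value of 1.00 ± 0.53 and was not called (edgeR adjusted p = 0.348). With 44 members examined, a pattern of this kind in 1 of them was not set against chance.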

How the results depend on the processing

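Every alternative kept 0 members higher in VM cells and 0 called between dirty and clean mice or by the interaction. Members lower in VM cells (6 in clean mice, 13 in dirty mice, 21 averaged) numbered 8, 14 and 23 with DESeq2, 9, 10 and 22 with library totals, and 4, 10 and 18 with no filter. With no filter 70 members were tested. With a filter of 10 CPM in at least 2 libraries, 24 were tested, and 10, 13 and 19 were lower. The shares of all rows under these filters are not given. The replicate number as a block gave 3, 11 and 17. Of 15 pairs of same-numbered libraries, 6 had deviations correlated over 0.1 (from -0.554 to 0.416 over all 15). Every one of the 6 pairs in the same depth class was among these, and none across classes. The correlations follow depth, so they cannot show whether same-numbered libraries pair. A depth term gave 6, 15 and 22. Fits on the 5 shallow libraries gave 0, 1 and 1, and on the 6 deeper ones 0, 0 and 0, with 1 and 2 residual degrees of freedom. Member medians there were -0.77, -0.73 and -0.80, and -0.75, -0.83 and -0.81. Leaving out each library in turn gave 0 to 10 in clean mice, 4 to 13 in dirty mice and 13 to 25 averaged. Leaving out a Clean_TN library assumes that the lone one varies like the other groups. For the log2 VM from TN difference of family sums the ranges were -0.32 to -0.20 for all members, -0.9999 to -0.74 for miR-297, -0.62 to -0.54 for miR-466 and for miR-467, and 0.01 to 0.32 for miR-669. The miR-669 sum reversed to -0.14 with identical rows counted each time. Single named members gave 854 values on the same side of the threshold, 179 that no longer passed, and none reversed. The 854 include members named in the environment and interaction contrasts, which were not called in the main fit and stayed uncalled. Library totals moved the median of all rows in clean mice from 0.08 to -0.13.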
